A study of Mus musculus with 16 samples.

Results

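The comparison covers the first and the last age of a time course of mouse brown adipose tissue: 3 arrays of tissue from embryos at embryonic day 18 (E18) and 3 arrays of tissue from mice aged 8 weeks (8W), chosen by their titles from 16 arrays in all. The other 10 arrays come from postnatal days 4 and 10 (P4 and P10) and from 4 weeks (4W). Every sample is whole tissue of the strain C57BL6/N, with no genotype or treatment named in the labels. Total RNA was extracted with ISOGEN, labelled with Cy3 and hybridised to Agilent 1-colour arrays. The labels do not say which depot was taken, which sex the animals had, or whether arrays of the same age hold different animals, pools or repeat hybridisations, so p-values measure only the spread between these arrays, which may be technical. All 3 E18 arrays lie on slide 1 and all 3 8W arrays on slide 2.

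Brown fat burns lipid to make heat. Its mitochondria carry the uncoupling protein UCP1, which lets protons return to the matrix without making ATP, and noradrenaline from sympathetic nerves switches the tissue on through beta-adrenergic receptors. In rodents the depot forms before birth, in step with the need to keep warm from the day of birth, and in adults it also takes up glucose and makes new fatty acids to refill its lipid droplets.

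Levels are log2 processed signals minus the 75th percentile of the array, so 0 is that percentile and 1 unit is a doubling. A log2 change is the 8W mean minus the E18 mean (n = 3 arrays per age), and ± is its limma standard error (SE). The SE and the 95% intervals come from 1 fit over all 16 arrays, so they draw on the spread at all 5 ages. The words "rose" or "fell" mean a limma adjusted p under 0.05. The 8 genes taken as defining brown fat (Ucp1, Cidea, Prdm16, Dio2, Cox7a1, Elovl3, Adipoq and Fabp4) were all well above background on all 6 arrays. The 75th percentile was 653 to 667 intensity units at E18 and 450 to 486 at 8W, and 66.8 to 67.1% of probes stood well above background on E18 arrays against 44.7 to 50.1% on 8W arrays. Arrays of one age correlated at 0.9956 to 0.9969 (Pearson) at E18 and 0.9876 to 0.9885 at 8W.

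Markers of other cells differed between the ages and stand beside every result that follows. All 31 measured skeletal muscle genes fell, and their summed linear signal (in units of the 75th percentile) was 367 to 373 at E18 and 48.2 to 51.6 at 8W. Their mean level did not follow age in one direction: E18 had 1.54, P4 -1.84, P10 1.81, 4W 2.71 and 8W -3.11. By the array median 30 of the 31 fell. The part of muscle RNA in the other results was not tested. In whole tissue, fewer cells of a type and less RNA per cell cannot be told apart.

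Most genes differed between the 2 ages. Of 16433 genes tested, 5183 (31.5%) rose and 5524 (33.6%) fell, or 65.2% in either direction, and 1280 (7.79%) rose and 2344 (14.3%) fell by at least 2-fold. The shares of 31.5% and 33.6% are the background for every count of list members below. The levels of the 3 arrays of one age did not overlap those of the other in 78.4% of genes, with 8W higher in 37.1% and lower in 41.3%. The median log2 change over all genes was -0.07. Scaling by the array median in place of the 75th percentile moved all changes up by 0.34 and gave 6720 rises and 2857 falls, so 70.2% of calls were rises against 48.4%. Many falls ended below detection: 2119 genes were well above background on all E18 arrays and on no 8W array, and 31 genes the reverse. Of the 12227 genes above background on all 6 arrays, 4991 rose and 3587 fell, 1129 and 791 of them by at least 2-fold. This set leaves out by construction the genes that ended below detection at 8W, so its counts do not test the excess of 2-fold falls. The direction of that excess changed with the scaling and with the filter on dim probes. By the array median 2305 genes rose and 1510 fell by at least 2-fold. With no filter on dim probes 6533 rose and 5417 fell, 2666 and 2331 of them by at least 2-fold. With slide as a term, estimated from the P4 and P10 arrays on both slides, 4459 genes rose and 4517 fell. Of those arrays only replicate 1 of P4 and replicate 1 of P10 lie on slide 2. The term thus cannot be told apart from the deviation of these replicates. No slide holds arrays of both E18 and 8W to compare within.

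**Figure D1:**
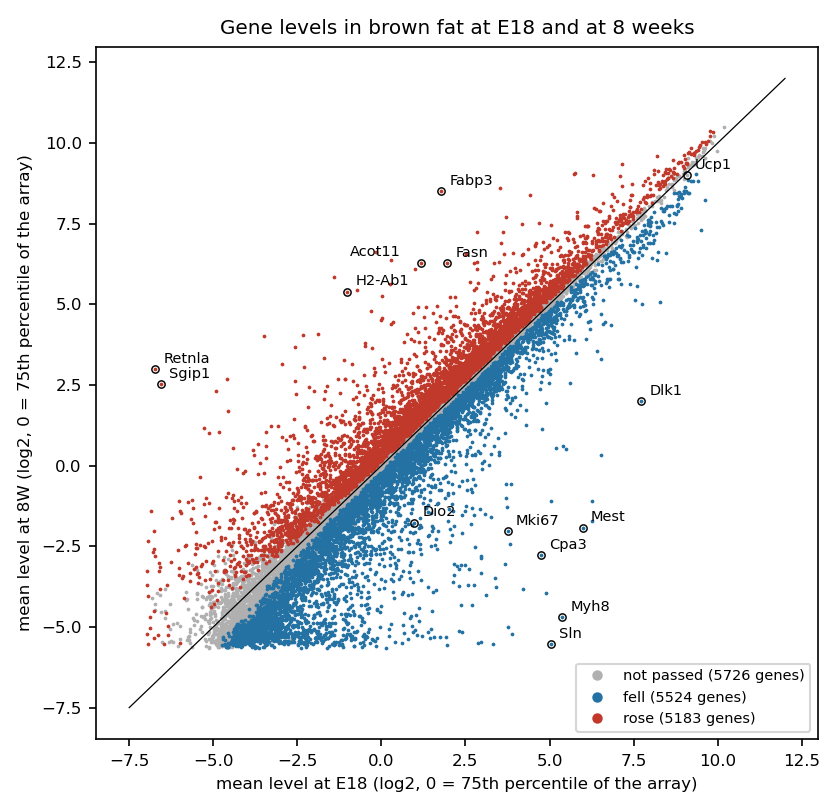
Mean level of each of 16433 genes at 8W (y axis) against E18 (x axis), both log2 with 0 at the 75th percentile of the array, n = 3 arrays per age; red genes rose, blue fell, grey did not pass, and the line marks equal levels. Ucp1 lies near the line at the top, Sgip1 and Retnla far above it, and Mest, Myh8 and Sln far below.

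The gene of the uncoupling protein did not pass the test, while other genes of thermogenesis moved both ways. Ucp1 was 9.10, 9.08 and 9.04 on the E18 arrays and 8.97, 8.92 and 9.10 on the 8W arrays. The arrays overlapped, and the log2 change of -0.08 ± 0.16 did not pass (limma adjusted p = 0.67, 95% interval -0.43 to 0.27). Its call and direction depend on the processing: Ucp1 passed as lower with quantile normalization (-0.23) and in the deposited series matrix (-0.47), and was higher without passing by the array median (0.26) and with a slide term (0.32). In the thermogenic brown fat list 17 of 27 measured genes rose and 7 fell (median log2 change 0.39). Over all genes 31.5% rose and 33.6% fell. With the series matrix 14 rose and 10 fell.

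Among identity factors, the regulators that set brown fate, 2 of 8 rose and 5 fell (median -0.41). Prdm16, a coregulator that holds cells in the brown lineage, was 0.46, 0.47 and 0.49 on the E18 arrays and 1.35, 1.33 and 1.33 on the 8W arrays. It rose 1.83-fold, with no overlap between the ages. Esrrg, a nuclear receptor of oxidative tissues, rose 1.7-fold. Ppargc1a, the coactivator that drives mitochondrial biogenesis, was 3.22, 3.27 and 3.24 on the E18 arrays and 2.35, 2.41 and 2.42 on the 8W arrays. It fell 1.81-fold (log2 -0.85 ± 0.06), with every 8W array below every E18 array. The homeobox gene Lhx8 fell 2.02-fold, Ebf2, which marks brown precursors, fell 1.52-fold, and the T-box gene Tbx15 fell 5.94-fold.

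Among effectors, the proteins that carry out or fuel thermogenesis, 15 of 19 rose and 2 fell (median 0.60). Acot11, an acyl-CoA thioesterase, was 1.16, 1.18 and 1.15 on the E18 arrays and 6.22, 6.33 and 6.33 on the 8W arrays, a rise of 35-fold (log2 5.13 ± 0.07, limma adjusted p = 7.3e-15). Slc27a2, a very-long-chain fatty acid transporter and acyl-CoA synthetase, rose 10.1-fold. Adrb3, the beta-adrenergic receptor of adipocytes, was 2.81, 2.89 and 2.85 on the E18 arrays and 6.09, 6.09 and 6.08 on the 8W arrays, and rose 9.42-fold. Slc6a8, the creatine transporter, rose 8.36-fold and Ckb, the creatine kinase of the futile creatine cycle, 1.71-fold. Cidea, a lipid droplet protein of brown adipocytes, rose 1.52-fold. Dio2, which converts thyroxine to its active form within the tissue, went the other way, at 0.94, 1.01 and 0.94 on the E18 arrays and -1.78, -1.72 and -1.81 on the 8W arrays, a fall of 6.65-fold (log2 -2.73 ± 0.06). Gk, glycerol kinase, fell 2.74-fold. Elovl3, a fatty acid elongase induced by cold, did not pass (log2 -0.15 ± 0.12, limma adjusted p = 0.31), and its direction turned in 1 of 19 alternative settings.

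**Figure D2:**
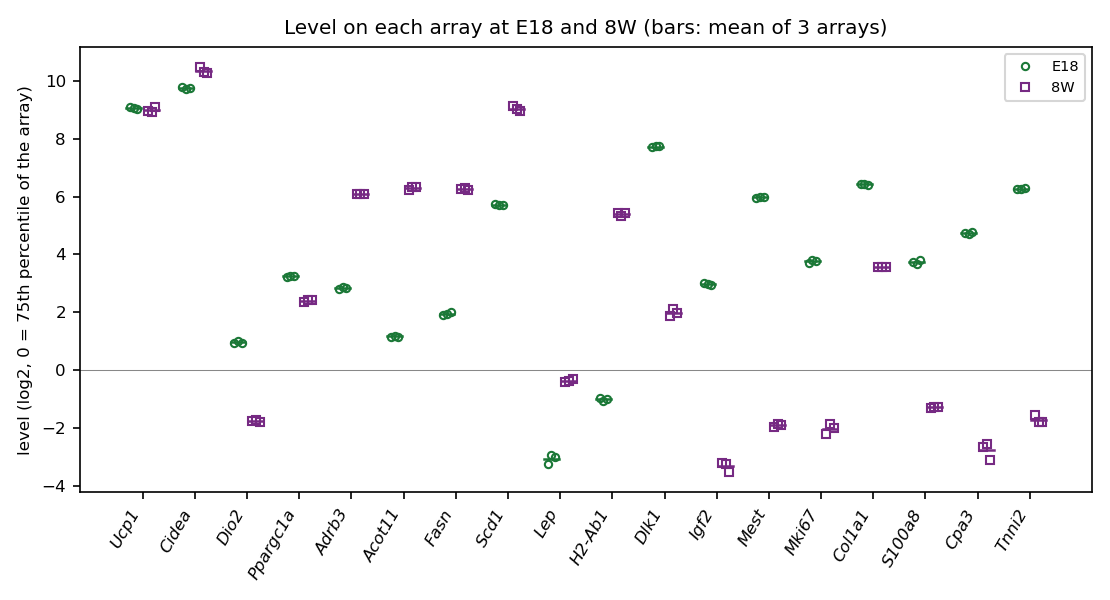
Level of 18 genes (log2, 0 at the 75th percentile) on each E18 array (green circles) and each 8W array (purple squares); bars are means of 3 arrays. The Ucp1 arrays overlap near 9, whereas the 2 ages separate for Dio2, Fasn, H2-Ab1, Mest and Mki67.

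Respiratory chain genes mostly changed by less than 2-fold. In the respiratory chain list 27 of 59 measured genes rose and 3 fell (median log2 change 0.18), against 31.5% of all genes that rose. Ndufv1, a complex I subunit, rose 1.55-fold, Sdhb of complex II 1.42-fold and Atp5a1 of the ATP synthase 1.32-fold. Atp5g1, a gene for subunit c of the synthase ring, was 5.81, 5.82 and 5.77 on the E18 arrays and 3.47, 3.45 and 3.54 on the 8W arrays, and fell 4.98-fold. The count depends on scaling, with 22 up and 10 down in the series matrix and 48 up and 1 down by the array median.

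Cytochrome oxidase has subunits with isoforms that differ between tissues. Cox6a2, the isoform of striated muscle, was 3.43, 3.41 and 3.38 on the E18 arrays and -3.90, -3.62 and -3.73 on the 8W arrays. It was at least 104-fold lower at 8W, where no array was above background, and its age means of 3.40, -0.24, 3.18, 4.0 and -3.75 went up and down with the muscle list above. Cox7a1 and Cox8b, isoforms of muscle and brown fat, rose 1.31-fold and 1.31-fold, and Cox8a, the widely expressed partner, 1.33-fold, but all 3 were lower in the series matrix (-0.15, -0.12 and -0.07). With quantile normalization none of these 3 passed, and Cox8b also did not pass without any 1 E18 array or without 8W replicate 2 or 3. 

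Fuel pathways around the chain rose in part. In the citric acid cycle list 12 of 17 measured genes rose and 1 fell (median log2 change 0.47); Dlat and Pdha1 of the pyruvate dehydrogenase complex rose 1.96-fold and 1.8-fold, and Ogdh, the oxoglutarate dehydrogenase, 1.91-fold. In the fatty acid oxidation list 14 of 26 measured genes rose and 5 fell (median log2 change 0.23), and by the array median 18 rose and 1 fell. In the series matrix 11 rose and 5 fell (median 0.05), and with a slide term 12 rose and 3 fell (median 0.13). Cpt1a, the liver-type carnitine palmitoyltransferase, fell 1.74-fold. Its muscle and brown fat counterpart Cpt1b rose 1.23-fold.

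Fat synthesis genes rose, with single changes that reached 19.9-fold. In this list 21 of 28 measured genes rose and 6 fell (median log2 change 1.03). Fasn, the fatty acid synthase, was 1.92, 1.95 and 2.0 on the E18 arrays and 6.26, 6.29 and 6.24 on the 8W arrays, a rise of 19.9-fold (log2 4.31 ± 0.08, limma adjusted p = 1e-13). The steps that feed it rose too: Acly, which makes cytosolic acetyl-CoA, 6.68-fold, Acaca, which makes malonyl-CoA, 9.87-fold, and Me1, a source of NADPH, 5.08-fold. Downstream, the elongase Elovl6 rose 16.7-fold, the desaturase Scd1 10.0-fold, and Dgat2, which closes triglyceride synthesis, 4.59-fold. Mlxipl, the carbohydrate-sensing transcription factor ChREBP, rose 4.75-fold, while Srebf1, the sterol and insulin-responsive factor, fell 1.23-fold. The fall of Srebf1 (log2 -0.30) is smaller than the upward shift of 0.34 by the array median, so its direction depends on the scaling. With that scaling 21 genes of the list rose and 3 fell, and in the series matrix 20 rose and 7 fell. Pnpla3, a lipid droplet protein, was 0.36, 0.29 and 0.19 on the E18 arrays and 4.59, 4.18 and 4.39 on the 8W arrays, a rise of 17.2-fold. Fads1, a desaturase of polyunsaturated fatty acids, fell 1.99-fold, and Gpat3, an acyltransferase, fell 2.69-fold.

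Glucose handling and general adipocyte genes also rose in the majority. For glycolysis and glucose uptake 15 of 18 measured genes rose and 2 fell (median log2 change 0.68). Slc2a4, the insulin-responsive transporter GLUT4, rose 3.62-fold, and Slc2a1, the basal transporter, fell 1.25-fold. The phosphofructokinase genes Pfkp, Pfkl and Pfkm rose 2.99-fold, 2.73-fold and 2.73-fold. Scaled by the array median, 15 genes of the list rose and 0 fell, so the fall of Slc2a1 depends on the scaling. In the series matrix 12 rose and 4 fell. In the general adipocyte list 19 of 32 measured genes rose and 6 fell (median log2 change 0.25). Lep, the satiety hormone leptin, was -3.25, -2.95 and -3.0 on the E18 arrays and -0.41, -0.37 and -0.32 on the 8W arrays, a rise of 6.51-fold. The lipases Lipe and Pnpla2 rose 2.35-fold and 2.05-fold, whereas their inhibitor G0s2 fell 9.44-fold. Retn, the hormone resistin, fell 5.53-fold. Adipoq, the hormone adiponectin, had a log2 change of 0.13 ± 0.08 that did not pass (limma adjusted p = 0.17). It passed as higher with quantile normalization (0.20), the array median (0.47) and array weights (0.13). In the cholesterol synthesis list 8 of 17 measured genes rose and 5 fell (median log2 change 0.12). With a slide term 4 rose and 6 fell (median 0.010), and with quantile normalization the median was 0.0053. Sc5d and Fdft1 rose 4.5-fold and 3.67-fold, and Hmgcs1 and Sqle, enzymes early in the pathway, fell 1.9-fold and 1.98-fold.

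Hormone and growth factor genes split by role. Of 21 receptors 12 rose and 4 fell (median 0.40). The thyroid hormone receptor Thrb rose 3.69-fold, the oestrogen receptor Esr1 3.54-fold and the growth hormone receptor Ghr 3.5-fold. Prlr, the prolactin receptor, was 1.65, 1.65 and 1.62 on the E18 arrays and -3.49, -4.15 and -3.96 on the 8W arrays, at least 30.7-fold lower at 8W by this probe. Another of its probes was above background on every array. Over 19 alternative settings the log2 change of Prlr ranged from -5.69 to -1.63. Of 13 binding proteins and inhibitors 10 fell and 2 rose (median -1.45, or -1.14 with 3 genes at their bound), among them Grb10, an imprinted adaptor that restrains insulin receptor signalling, down 12.3-fold with 1 of 3 8W arrays above background, and Igfbp3 down 5.46-fold. Ligands went both ways, with 6 of 15 up and 6 down. Fgf1 rose 21-fold, but another of its probes changed by 0.18. Over all 49 genes 20 rose and 20 fell, and the sign of the median (0.02) changed in 7 of 19 alternative settings.

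Genes of dividing cells fell without exception among those measured. All 42 cell division genes fell (median log2 change -3.12, or -2.85 with 7 genes at their bound), against 33.6% of all genes. Under the scaling and slide alternatives 40 or 41 fell. Mki67, the proliferation antigen, was 3.71, 3.80 and 3.75 on the E18 arrays and -2.22, -1.86 and -2.02 on the 8W arrays, a fall of 55.2-fold. Top2a, the topoisomerase of mitotic chromosomes, was 0.68, 0.68 and 0.68 on the E18 arrays and -5.09, -4.93 and -5.55 on the 8W arrays, at least 15.8-fold lower. The replication helicase genes fell less, Mcm5 7.14-fold and Mcm7 2.21-fold, and Pcna, the sliding clamp, 1.57-fold. Markers of muscle precursors and of blood cells fell on the same arrays, and the share of the cell division change that lies in brown adipocytes was not tested.

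Promoters of cell cycle genes often carry CCAAT boxes and a TTTGAA element, the cell cycle homology region. The 250 bases before the start of 3 genes of the list are shown because each holds both, in the RefSeq promoter table on GRCm38.p6, 5′ to 3′ on the strand of the gene, with both elements on either strand in capitals: Top2a at chr11:99024190-99024439, Cdk1 at chr10:69352913-69353162 and Ccnb2 at chr9:70421555-70421804, all on the minus strand.
Top2a: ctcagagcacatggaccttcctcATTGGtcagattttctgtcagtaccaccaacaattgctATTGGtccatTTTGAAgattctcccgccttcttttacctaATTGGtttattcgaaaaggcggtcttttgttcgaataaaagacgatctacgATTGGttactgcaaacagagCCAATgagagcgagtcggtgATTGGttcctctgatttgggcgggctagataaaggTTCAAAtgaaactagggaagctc
Cdk1: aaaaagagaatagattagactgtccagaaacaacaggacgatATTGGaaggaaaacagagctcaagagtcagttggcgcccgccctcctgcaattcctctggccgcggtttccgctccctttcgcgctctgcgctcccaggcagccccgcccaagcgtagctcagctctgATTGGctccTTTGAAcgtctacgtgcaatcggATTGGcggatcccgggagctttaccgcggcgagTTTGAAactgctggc
Ccnb2: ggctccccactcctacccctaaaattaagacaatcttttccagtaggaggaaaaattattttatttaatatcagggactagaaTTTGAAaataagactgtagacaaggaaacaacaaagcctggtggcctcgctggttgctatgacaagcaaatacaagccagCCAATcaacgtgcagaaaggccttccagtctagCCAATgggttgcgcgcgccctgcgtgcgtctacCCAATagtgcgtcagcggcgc
The Top2a promoter holds 6 CCAAT boxes and 2 TTTGAA elements, Cdk1 holds 3 and 2, and Ccnb2 holds 3 and 1. Cdk1, the mitotic kinase, fell 35.7-fold, with 1 of 3 8W arrays above background, and Ccnb2, a cyclin that binds it, 39.9-fold, with 2 of 3. Of 42 genes of the list 35 matched a promoter, and 27 of these (77.1%) held CCAAT on either strand, against 39.3% of 13043 genes tested and 33.8% of 32851 promoters of this length. TTTGAA was in 10 (28.6%), against 14% and 16%. The letters CCAAT and TTTGAA do not overlap, and a match is a description, not a binding site.

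Growth genes of the fetus fell with them. In the imprinted gene list, whose members are read from 1 parental copy, 3 of 17 measured genes rose and 14 fell (median log2 change -1.39, or -0.52 with 3 genes at their bound). Mest was 5.96, 6.0 and 6.0 on the E18 arrays and -1.98, -1.88 and -1.91 on the 8W arrays, a fall of 240.4-fold (log2 -7.91 ± 0.05, limma adjusted p = 6.3e-18). Igf2, the fetal insulin-like growth factor, was 3.0, 2.96 and 2.95 on the E18 arrays and -3.23, -3.26 and -3.53 on the 8W arrays, at least 75-fold lower. Dlk1, a Notch-like protein of preadipocytes, fell 53.6-fold, and Plagl1, a zinc finger regulator of other imprinted genes, 73.9-fold. Over 19 alternative settings the log2 change of Plagl1 ranged from -6.23 to -3.32. Nnat and Snrpn rose, 2.24-fold and 1.72-fold. Of 23 other fetal growth regulators 16 fell and 1 rose (median log2 change -1.07, or -0.49 with 8 genes at their bound). These counts depend on the processing, with 11 down and 4 up by the array median. With normexp 12 of the regulators fell and 2 rose, and with a slide term 14 fell and 4 rose. The RNA-binding protein gene Igf2bp3 was at least 4.66-fold lower and Marcksl1, an actin regulator, fell 10.4-fold.

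Extracellular matrix genes fell in the great majority. In the extracellular matrix list 2 of 39 measured genes rose and 34 fell (median log2 change -1.98). Col1a1, a chain of fibrillar collagen, was 6.43, 6.42 and 6.41 on the E18 arrays and 3.55, 3.55 and 3.58 on the 8W arrays, a fall of 7.28-fold. The elastic fibre genes Fbn2 and Mfap4 were at least 28.6-fold lower and 24-fold lower. The basement membrane collagens Col4a1 and Col4a2 fell less, 2.94-fold and 1.83-fold. Col8a1 was at least 4.34-fold higher at 8W, and Lox, a collagen crosslinker, rose 1.4-fold. Beside these, of 12 fibroblast progenitor markers 8 fell and 4 rose, with summed signals of 72.1 to 73.3 at E18 and 60.8 to 62.5 at 8W. Dpp4 was at least 2.6-fold lower and Pdgfra fell 2.21-fold, while Ly6a rose 3.3-fold.

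Antigen presentation genes showed the highest median change of the lists. Here 19 of 20 measured genes rose and 1 fell (median log2 change 2.49), and all 9 class II genes rose (median 4.04). H2-Ab1, a chain of the class II molecule that shows peptides to helper T cells, was -0.97, -1.06 and -1.0 on the E18 arrays and 5.42, 5.33 and 5.42 on the 8W arrays, a rise of 84.7-fold (log2 6.40 ± 0.07). Cd74, the invariant chain, rose 62.4-fold. H2-Aa rose 77-fold, with 1 of 3 E18 arrays above background. The class II regulator Ciita rose 1.77-fold, with 1 of 3 8W arrays above background. In the class I pathway H2-K1 and H2-D1 rose 10.1-fold and 7.1-fold, and Nlrc5, its regulator, 8.19-fold. Class I genes are near-identical copies that probes may not separate.

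Interferon response genes went both ways, in shares near or above those of all genes: 11 of 23 measured genes rose and 9 fell (median log2 change 0.19). Cxcl10, a chemokine, rose 9.81-fold and Gbp2, a guanylate-binding protein, 3.59-fold, whereas Isg15, a ubiquitin-like modifier, fell 2.51-fold and Ifi44 3.29-fold. The split depends on the processing, with 10 up and 10 down by quantile normalization, 11 up and 4 down by the array median, and 7 up and 10 down with a slide term. The promoters of a riser and a faller are shown with the interferon response element (GAAA, any 2 bases, GAAA) in capitals, and that of the class II gene H2-Eb1 with the core of the X box (AGNAAC followed by NGATG), each searched on both strands: Cxcl10 at chr5:92348890-92349139 and Isg15 at chr4:156200819-156201068 on the minus strand, and H2-Eb1 at chr17:34305617-34305866 on the plus strand, from the same table.
Cxcl10: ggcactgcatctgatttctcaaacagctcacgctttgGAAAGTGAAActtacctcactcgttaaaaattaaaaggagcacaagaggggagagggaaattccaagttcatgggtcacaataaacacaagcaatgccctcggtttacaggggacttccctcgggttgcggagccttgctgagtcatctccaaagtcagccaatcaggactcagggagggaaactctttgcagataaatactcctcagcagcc
Isg15: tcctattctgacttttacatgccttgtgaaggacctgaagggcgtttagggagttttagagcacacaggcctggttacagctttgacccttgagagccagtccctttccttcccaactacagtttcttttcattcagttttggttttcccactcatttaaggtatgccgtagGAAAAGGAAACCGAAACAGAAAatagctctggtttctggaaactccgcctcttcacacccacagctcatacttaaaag
H2-Eb1: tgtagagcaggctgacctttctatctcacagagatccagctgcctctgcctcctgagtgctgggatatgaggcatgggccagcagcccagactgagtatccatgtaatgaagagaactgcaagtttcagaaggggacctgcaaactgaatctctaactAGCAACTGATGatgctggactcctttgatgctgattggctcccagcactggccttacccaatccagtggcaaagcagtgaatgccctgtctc
The element begins 213 bases before the start of Cxcl10, and 3 overlapping copies begin 78, 72 and 66 bases before that of Isg15. It was in 10 of 19 interferon genes with a promoter (52.6%), against 3.37% of genes tested and 2.98% of all promoters, and these 10 include rising and falling genes. The X box letters begin 92 bases before the start of H2-Eb1 and were in 2 of 15 antigen presentation genes (13.3%), class I genes included, against 0.261% and 0.259%. This motif was chosen after matches were seen, so its share is a description and no test. The NRF1 site (GCGCA, any base, GCGC) was in 9 of 47 respiratory chain genes (19.1%), against 7.42% and 3.74%. The PPAR element (AGGTCA repeated after 1 base) was in 0 of 25 general adipocyte genes, against 0.0537% of genes tested.

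Neutrophil, mast cell and erythroid markers mostly fell, while macrophage and lymphocyte markers rose and fell in shares near those of all genes (31.5% and 33.6%). Of 20 macrophage markers 6 rose and 7 fell. Their median log2 change was -0.07, and 0.26 by the array median. Their mean change was 0.53, and 0.045 without Retnla. The broad markers Adgre1 and Csf1r had log2 changes of -0.29 (a fall) and -0.14 (not passed), Mrc1 and Lyve1 of resident macrophages fell 3.18-fold and 4.4-fold, and Cd14 rose 4.45-fold. Retnla, a secreted protein of alternatively activated macrophages and of fat, was -6.94, -6.59 and -6.66 on the E18 arrays and 2.99, 3.0 and 3.0 on the 8W arrays, at least 203-fold higher at 8W. Of 19 lymphocyte markers 6 rose and 5 fell, but none fell and 7 rose with a slide term, and none fell and 9 rose with normexp background correction. All 15 neutrophil genes that passed fell, of 16 measured (summed signal 75.3 to 76.9 at E18 and 9.05 to 10.6 at 8W), with S100a8 at 3.75, 3.67 and 3.80 on the E18 arrays and -1.32, -1.27 and -1.29 on the 8W arrays. The neutrophil median was -3.05, or -1.85 with 7 genes at their bound. With a slide term 11 of these genes fell and 1 rose, and with normexp 12 fell. Of 8 mast cell genes 6 fell and 2 rose, and Cpa3, the mast cell carboxypeptidase, fell 185-fold. Of 19 erythroid genes 15 fell and 1 rose, and the embryonic globin gene Hbb-y was at least 17.9-fold lower. The erythroid median was -1.78, or -1.37 with 9 genes at their bound, and with normexp 11 fell and 1 rose.

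Muscle genes held the largest falls. Tnni2, a fast troponin, was 6.26, 6.27 and 6.29 on the E18 arrays and -1.55, -1.81 and -1.80 on the 8W arrays, a fall of 255-fold. Of 15 genes of developing muscle 14 fell (median -3.06, or -1.54 with 12 genes at their bound). Myh8 and Myh3, the perinatal and embryonic myosins, were at least 406-fold and at least 99.4-fold lower. Sln, the sarcolipin that uncouples the calcium pump in muscle, was 5.01, 5.07 and 5.05 on the E18 arrays and -5.48, -5.21 and -5.92 on the 8W arrays, at least 326-fold lower. Smooth muscle and pericyte genes went up, 9 of 13 against 1 down, with Rgs5, a pericyte gene, up 5.69-fold. Of 19 endothelial genes 5 rose and 8 fell, against 31.5% and 33.6% of all genes. Their median was -0.20, but 0.14 by the array median, where 7 rose and 1 fell. Of 14 Schwann and nerve genes 7 rose and 4 fell, with Th, the rate-limiting enzyme of noradrenaline synthesis, up 1.94-fold.

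**Figure D3:**
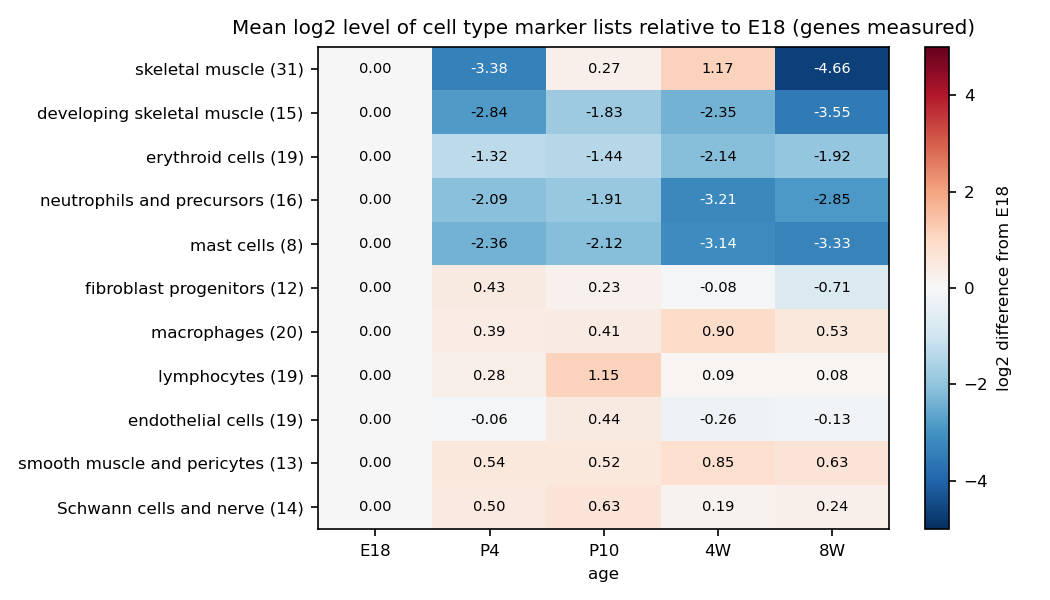
Mean log2 level of each cell type marker list at 5 ages minus its mean at E18 (colour and number), with the number of genes measured in brackets. Skeletal muscle is lowest at 8W (-4.66) and above E18 at 4W (1.17), while neutrophil and mast cell lists are low at every later age.

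Some groups outside fat metabolism moved together. In the oxidant defence and detoxification list 22 of 24 measured genes rose (median log2 change 1.21), and the lowest change was 0.09. Gpx3, a secreted glutathione peroxidase, was 3.70, 3.69 and 3.69 on the E18 arrays and 7.64, 7.73 and 7.73 on the 8W arrays, a rise of 16.1-fold, and Gstt1 and Gstm1, glutathione transferases, rose 14-fold and 8.36-fold. In the cytosolic ribosome list 25 of 26 measured genes fell (median log2 change -0.71), although 14 fell by the array median. Rpl5 fell 2.4-fold and Rps4x 2.36-fold. In the circadian clock list 12 of 19 measured genes rose and 4 fell (median log2 change 0.97). The repressor gene Nr1d1 was -1.71, -1.63 and -1.73 on the E18 arrays and 2.31, 2.28 and 2.31 on the 8W arrays, a rise of 15.9-fold, Dbp, an output factor, rose 6.73-fold, and Arntl, which encodes the activator BMAL1, fell 1.96-fold. The labels give no hour of collection, so age and time of day cannot be told apart for these genes.

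**Figure D4:**
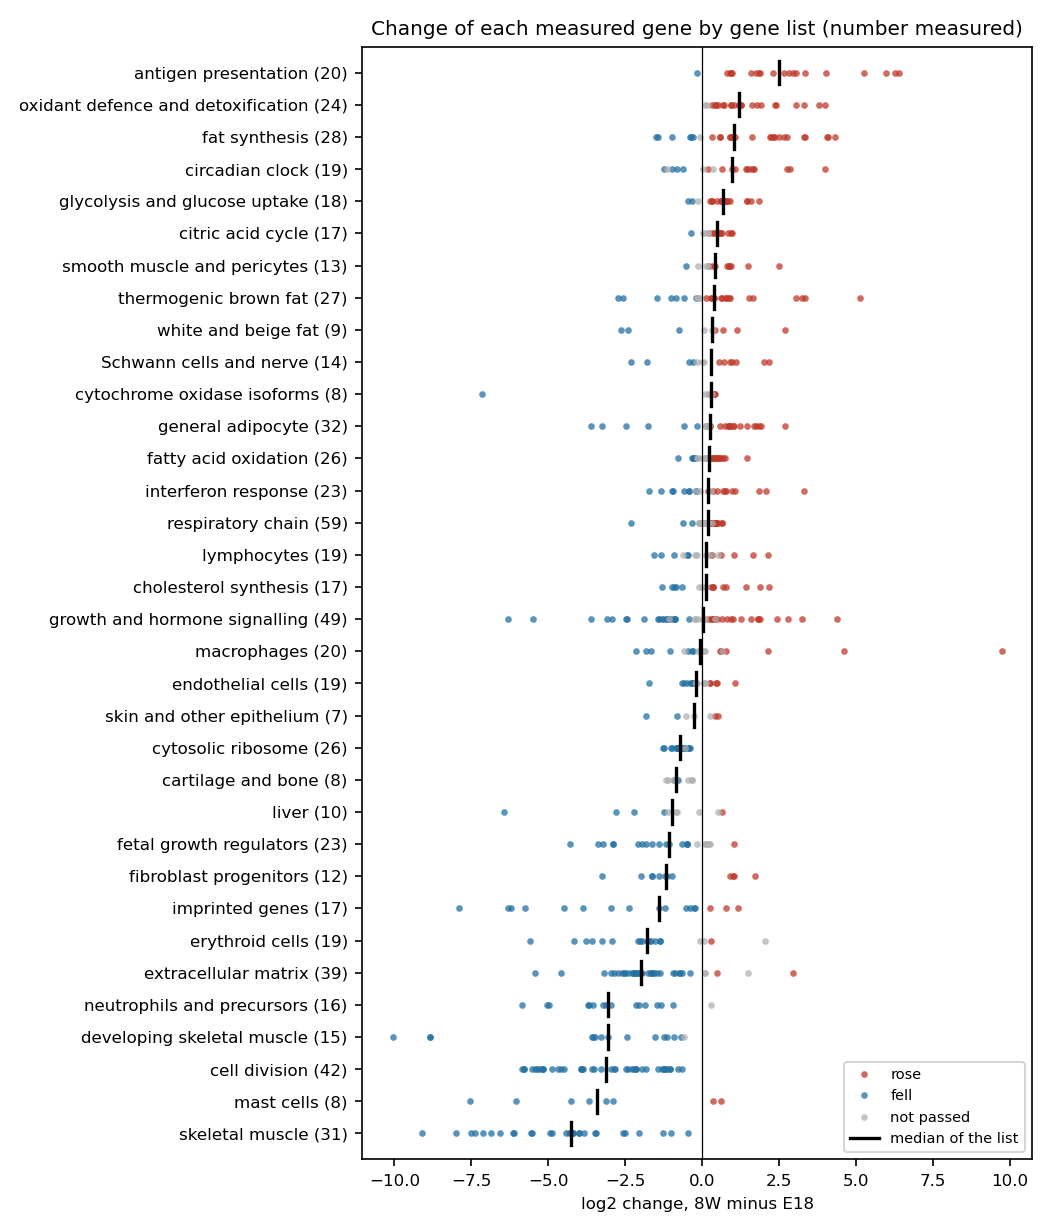
Log2 change (8W minus E18, x axis) of every measured gene of 34 lists, ordered by median (black bars); red rose, blue fell, grey did not pass. Antigen presentation lies highest, with a median of 2.49, and skeletal muscle lowest, with -4.28 (-4.0 with 17 genes at their bound).

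Several of the largest single rises lay outside these groups. Sgip1, an endocytic adaptor known from brain, was -6.85, -6.29 and -6.56 on the E18 arrays and 2.47, 2.64 and 2.49 on the 8W arrays, at least 147-fold higher at 8W. It rests on 1 probe, and its mean was -5.80 at P4, -5.78 at P10 and -5.58 at 4W. Fabp3, the heart-type fatty acid binding protein, was 1.76, 1.81 and 1.76 on the E18 arrays and 8.54, 8.50 and 8.45 on the 8W arrays, a rise of 105-fold. Kng1 and Kng2, kininogen genes with similar sequence that probes may not separate, rose 111-fold and 76.5-fold. Slc2a5, a fructose transporter, rose 84.9-fold, and the chemokine gene Cxcl14 rose 156-fold, with 2 of 3 E18 arrays above background. Among the falls, Agtr2, an angiotensin receptor abundant in fetal tissue, was at least 76.3-fold lower and Stfa1, a cysteine protease inhibitor of a family with near-identical copies, at least 134-fold.

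Levels at the ages between did not always lie between those of the ends. Ucp1 had mean levels of 9.75 at P4, 9.58 at P10 and 9.61 at 4W, all above its 9.07 at E18 and 8.99 at 8W. Dio2 stood at 4.17 at P4 and 2.0 at 4W, above both ends. Fasn was lower at P4 (-1.48) than at E18 (1.95) and reached 6.26 at 8W. H2-Ab1 went from -1.01 through 1.98, 3.71 and 5.33 to 5.39. These means of the ages between are descriptions and were not tested here.

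**Figure D5:**
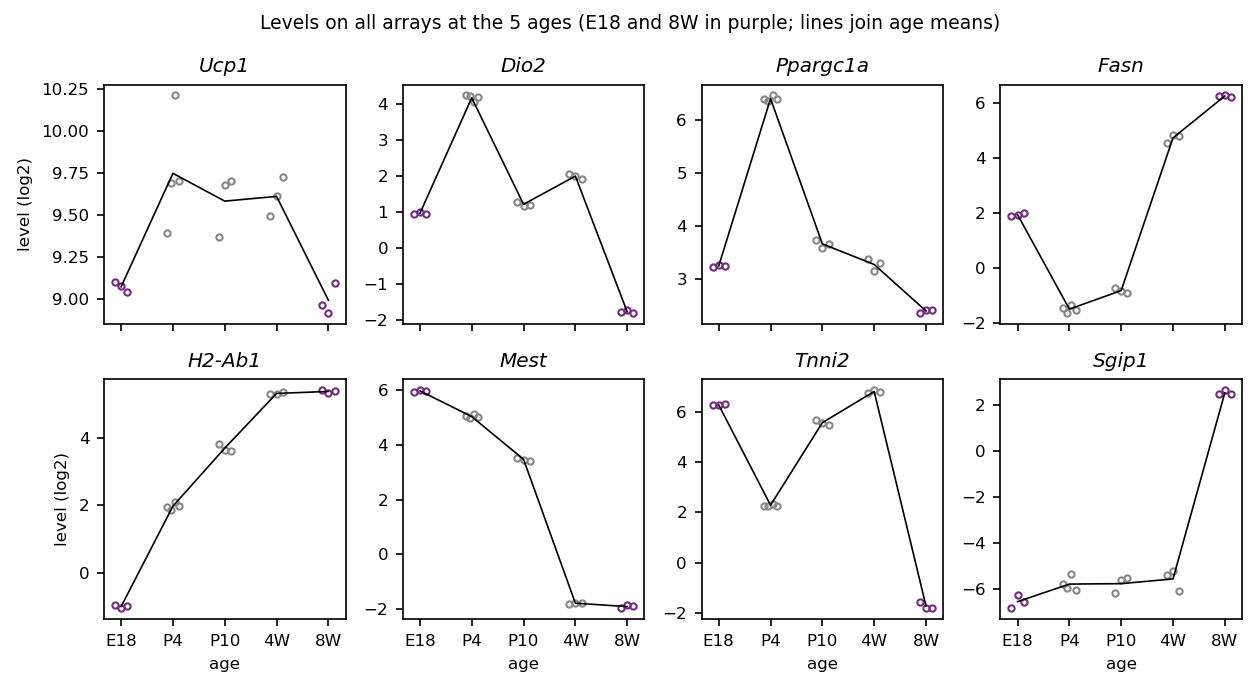
Level (log2, 0 at the 75th percentile) of 8 genes on all 16 arrays at the 5 ages; points are arrays, purple at E18 and 8W, and lines join the means of 3 arrays (4 at P4). Ucp1, Dio2 and Ppargc1a peak at P4, and Sgip1 is high at 8W alone.

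The Y-linked genes Ddx3y, Uty and Eif2s3y were above background on all arrays of both ages and did not pass (log2 0.19, -0.11 and 0.05), with 1 E18 value of Eif2s3y missing after a marked spot was dropped. Xist, the RNA behind X inactivation in females, was above background on 2 of 3 E18 arrays and on no 8W array, and its 2 probes moved in opposite directions.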

How the data were processed

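The authors hybridised Cy3-labelled total RNA to Agilent 1-colour arrays. Intensities came from the deposited scanner files' processed signal, background subtracted per the file headers, which name Feature Extraction 11.5.1.1 (11.0.1.1 per the submitters' processing notes). The deposited series matrix is on a log2 scale. Its columns hold the same sorted values, as after quantile normalization, and its ranks match those of the processed signal to within 1. Its values were not compared with those of the processed signal after quantile normalization. It served as an alternative, and no source used here describes how it was made.

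Control spots (3671 of 62976) were left out and 2720 marked values set to missing; no spot was saturated. Of 55681 probes, 27656 were named by RefSeq accession. Each array's log2 values had its 75th percentile subtracted. Probes well above background on at least 3 of 16 arrays were kept, and a gene took its kept probe with the highest mean (16433 genes; of 4202 with several kept probes, 268 had probes that passed in opposite directions). One limma fit (limma 3.58.1, R 4.3.3) over 16 arrays, with age as the only term, gave the two-sided 8W minus E18 contrast, adjusted by Benjamini-Hochberg. "At least N-fold" is the mean of the measured age over the mean, in the other, of the lowest signal well above background or the probe's own signal if higher. The number of arrays limits the precision. The fit was tested on simulated data.

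Members and lists were chosen with earlier results of these data known. Named are a panel, up to 4 largest non-overlapping changes per list, the 15 largest rises and falls, all cytochrome oxidase isoform and sex-linked genes; other genes were named after their values were seen. The promoters shown and the X box motif were also chosen after values and matches were seen. Some genes that the naming rule allows are not reported here.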

Additional observations from a re-analysis of the deposited data

How the results depend on the processing

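Over 19 alternative settings, 144 of the 168 genes named by rule kept both direction and side of the threshold wherever they could be fitted. In at least 1 setting 14 of the 168 changed sign. Genes named after their values were seen, such as Srebf1, Slc2a1 and Adgre1, are not in these counts. Leaving out 1 array gave 4794 to 4945 rises and 4930 to 5177 falls. The falls numbered 2857 with the array median as scale, which shifts the median change by 0.34, and 3668 among the 11937 genes whose probe was above background on every array. With a replicate block 5075 genes rose and 5454 fell; same-numbered arrays of the 2 ages correlated at 0.032, 0.046 and -0.007 in their deviations, so they share only a number. Medians changed sign in 7 of 35 lists: cytochrome oxidase isoforms (-0.096, series matrix), growth and hormone signalling (-0.093 quantile, -0.017 normexp, -0.11 series matrix, -0.13 mean of probes, -0.030 slide block, and -0.027 to 0.052 when 1 array was left out, negative without E18 replicate 3 or, at -0.024, 8W replicate 1), macrophages (0.26), endothelial cells (0.14), skin (0.064) and sex-linked genes (0.32) by the array median, skin also with normexp (0.17), all-array probes (0.33), the slide block (0.11) and 3 other settings (0.022 to 0.035), macrophages also without 8W replicate 2 (0.0099), sex-linked genes also with the slide block (0.21) and without 8W replicate 1 (0.063), and liver with the slide block (0.27). Of the 168 genes named by rule, those that passed the test and changed sign with normexp were Bglap2 (0.024) and Fga (0.063). Cd8a (0.032) did so with the slide block and Trp63 (-1.77) with the mean of probes. Cox7a1 (-0.15), Cox8a (-0.073) and Cox8b (-0.12) did so in the series matrix. The causes were not tested. Of genes that did not pass, Ucp1 (-0.47 to 0.32), Cox4i1 (-0.26 to 0.52), Cox4i2 (-0.0030 to 0.43), Cox6a1 (-0.036 to 0.73), Elovl3 (-0.20 to 0.19), Eif2s3y (-0.36 to 0.41) and Uty (-0.23 to 1.28) changed sign over the settings. The Cox8b call was also lost without any E18 replicate or without 8W replicate 2 or 3. Slide passed as a term in 2015 genes (12.3%), with a median size of 0.135 against 0.50 for the contrast. This term rests on P4 replicate 1 and P10 replicate 1 as the only arrays of those ages on slide 2. Where 8W signals lay at background, falls are bounds.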

Other observations

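Medians are given here for the roles within some gene lists. Among cell division genes, those of mitosis fell by a median log2 change of -4.48 (25 genes; -3.86 with 7 of them at their bound) and those of DNA replication by -1.96 (17 genes). In antigen presentation the median was 4.04 for 9 class II genes and 2.31 for 11 class I genes. In the matrix it was -2.61 for 5 fibrillar collagen genes and -1.26 for 8 basement membrane genes. Clock activators had a median of 0.02 (5 genes), repressors of 0.86 (10) and output factors of 1.44 (4). Differences between roles were not tested.

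In the white and beige fat list 4 of 9 measured genes rose and 3 fell (median log2 change 0.32, or 0.54 with 2 genes at their bound). Cited1, a beige fat marker, fell 6.16-fold, and Slc7a10, an amino acid transporter of white adipocytes, fell 5.32-fold. More genes of this list rose than fell, and its highest log2 change was 2.70. In the liver list 1 of 10 measured genes rose and 4 fell (median log2 change -0.97, or -0.04 with 5 genes at their bound), with the sign of the median turned by a slide term; Mup1, a major urinary protein gene of a family with near-identical copies, stood at least 64.7-fold lower by 8W. In the cartilage and bone list 2 of 8 measured genes fell (median log2 change -0.85, or -0.04 with 5 genes at their bound), and under quantile normalization neither call held. In the skin and other epithelium list 2 of 7 measured genes rose and 2 fell (median log2 change -0.27, or 0.0 with 1 gene at its bound). Krt18, a keratin of simple epithelia, fell 3.52-fold and was above background on 1 of 3 8W arrays. The highest log2 change of the skin list was 0.51.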
